A study of Rattus norvegicus with 9 samples.

Results

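Cxcl1, Cxcl2, Ccl3 and Ccl4 are early inflammatory chemokines, followed here in cardiac RNA of rats with heart failure after coronary ligation. They were taken by gene name, with their listing in the deposited tables and their high values in the libraries headed Cal already known. Those same values therefore chose them, and their levels and differences are given below as descriptions without a test. All 4 were listed among the 5760 genes found in at least 1 of the 2 tables. Cxcl1 and Cxcl2 were in both, within the 4288 genes of the Cal and model table and the 2458 of the model and sham table. Ccl3 and Ccl4 were in the model and sham table alone, so their levels in the libraries headed Model were not analysed here.

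The study sequenced poly(A) RNA from the hearts of male Sprague Dawley rats, 3 per group, picked at random from larger groups of animals. The sham group, called Control in the labels and headed Con in the tables, had the operation without ligation and then distilled water. The model group had the left anterior descending coronary artery tied and then distilled water. The Cal group had the same ligation and, starting 24 h after it, calycosin (a plant isoflavone, Cal) by mouth at 80 mg/kg per day for 28 days. The age of the rats is not given in the sources used here. The comparisons asked what ligation changed in the heart and what Cal changed after ligation.

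The headings in the deposited tables contradict each other, and every direction below depends on which is right. Each table has group means beside its sample columns. In the table of Cal and model, averaging the 3 sample columns under Model returns the mean given under Cal, and averaging those under Cal returns the mean given under Model. In the table of model and sham, sample columns are headed Cal and Con only, and averaging those under Cal returns the mean given under Model. Libraries are named here by the heading of their sample column, as "headed Cal", "headed Model" or "headed Con". By the mean columns, the libraries headed Cal would be those of the model group. The 3 libraries headed Cal were the same in both tables, with identical reads for 986 of 986 shared genes. Cal over Model and Cal over Con thus share these 3 libraries and are not independent of each other.

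Values are normalized counts, which are reads per gene divided by a size factor of the library. Reads on listed genes ranged from 2860826 to 4659882 per library and table. The tables hold only part of each library, whose total depth is unknown. Heart muscle was well represented in the libraries headed Cal and headed Con. Myh6, the heavy chain of atrial and fast cardiac myosin, averaged 335145 ± 1036 normalized counts under the heading Cal and 275029 ± 33746 under the heading Con (SD, n = 3). It was not listed in the Cal and model table, so the libraries headed Model have no such value. In such tissue RNA, fewer cells of a type and less RNA per cell cannot be told apart.

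Chemokines are small secreted proteins that guide leukocytes along a gradient to injured tissue. Cxcl1 and Cxcl2 act on the receptor Cxcr2 and draw in neutrophils, whereas Ccl3 and Ccl4, the macrophage inflammatory proteins 1 alpha and beta, attract monocytes, macrophages and T cells. Resting tissue holds little of their mRNA. Tumor necrosis factor, interleukin 1 and Toll-like receptor ligands induce them quickly through NF-κB, and AU-rich elements in their mRNAs allow an equally quick decay. After myocardial infarction they belong to the first wave of inflammatory signals.

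The genes lie in 2 neighbouring pairs in the deposited annotation, which uses mouse Ensembl genes and mouse coordinates although the animals were rats. The tables name no genome build. Cxcl1 (ENSMUSG00000029380) is on chr5:90891241-90893115, plus strand, and Cxcl2 (ENSMUSG00000058427) follows on chr5:90903871-90905938, plus strand, with 10755 bases between them. Ccl3 (ENSMUSG00000000982) is on chr11:83647844-83649355, minus strand, and Ccl4 (ENSMUSG00000018930) on chr11:83662584-83664683, plus strand, with 13228 bases between them. Values are per gene, with deposited lengths of 1875 bases for Cxcl1, 2068 for Cxcl2, 766 for Ccl3 and 660 for Ccl4. The lengths of Cxcl1 and Cxcl2 equal their whole spans on the chromosome, whereas those of Ccl3 and Ccl4 are shorter than their spans. Each pair arose by duplication, and how the authors counted reads shared by close relatives is not given in the sources used here, so reads of a pair may have been split between its genes.

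The promoters of Cxcl1 and Cxcl2 are shown because these genes had almost the same profile over the libraries and are known NF-κB targets. The RefSeq table of promoters (GRCr8, rat) held an entry for Cxcl1 (chr14:17479322-17479571, minus strand) and for Cxcl2 (chr14:17467256-17467505, minus strand). The 250 bases before each start are printed 5′ to 3′, with capitals marking matches on either strand to the κB-type motif GGGNNTTTCC. Ccl3 and Ccl4 are named only.
Cxcl1: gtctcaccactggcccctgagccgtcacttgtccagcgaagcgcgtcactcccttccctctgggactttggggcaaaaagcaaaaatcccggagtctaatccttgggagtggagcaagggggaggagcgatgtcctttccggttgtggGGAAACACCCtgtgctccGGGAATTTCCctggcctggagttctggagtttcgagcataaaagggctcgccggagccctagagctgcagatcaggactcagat
Cxcl2: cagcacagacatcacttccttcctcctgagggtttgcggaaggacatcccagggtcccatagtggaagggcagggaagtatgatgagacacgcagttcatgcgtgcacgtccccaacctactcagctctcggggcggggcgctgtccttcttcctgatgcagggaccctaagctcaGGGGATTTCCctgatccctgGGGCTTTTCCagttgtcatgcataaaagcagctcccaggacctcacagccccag

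Each promoter held 2 matches. In Cxcl1 they lay 84 to 75 bases before the start on the plus strand and 102 to 93 bases before it on the minus strand, and in Cxcl2 at 74 to 65 and 54 to 45 bases before the start, both on the plus strand. Over all promoters of the table, 435 of 33469 windows of this length (1.30%) held the motif. Among the promoters of other chemokines, 2 of 22 held it, those of Ccl20 and Ccl9. The motif TGANTCA, bound by AP-1 factors, was in 2122 of 33469 windows (6.34%) and in neither of these 2. Both motifs were chosen after the sequences were seen, and a match is a description of letters, not of binding.

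Cxcl1 was the most abundant of the 4 in the libraries headed Con and headed Cal, and exceeded Cxcl2 in those headed Model. In the libraries headed Con it was low, with 33.5, 84.5 and 29.4 normalized counts (49.1 ± 30.7, SD, n = 3). In the libraries headed Cal it reached 20439, 22178 and 21295 on the scale of the same table (21304 ± 869). The groups lay far apart, with no library between them.

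Against the libraries headed Model the distance was shorter. On the scale of the Cal and model table, Cxcl1 had 5910, 10595 and 5328 normalized counts in the libraries headed Model (7278 ± 2888) and 18275, 19779 and 19100 in those headed Cal (19051 ± 753). The second library headed Model stood above the other 2 of its group, yet below every library headed Cal. The ratio of the means was 2.62, and the difference on the scale of log2(normalized count + 1) was 1.46 ± 0.26 (SE).

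Cxcl2 had the same order of groups at a lower level. It had 4.66, 8.84 and 2.02 normalized counts in the libraries headed Con, which came from 5, 9 and 2 reads. The libraries headed Model had 943, 1985 and 1265 (1398 ± 534), and those headed Cal 3892, 4294 and 3884 (4023 ± 235). Again no library of a group overlapped another group, and again the second library was the highest of those headed Model. The mean was 2.88 times as high under the heading Cal as under the heading Model, a log2 difference of 1.59 ± 0.26.

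Both genes listed in the Cal and model table were thus higher, without overlap, in the libraries headed Cal, as were 45.7% of all listed genes. Both also passed the limits for a call used below, which 28.4% of listed genes passed in this direction. Nothing can be read from either count, since these values chose the genes. The scaling mattered here, because the median listed gene differed by -0.52 on the log2 scale between these groups and by -0.10 after quantile normalization. Quantile normalization gave differences of 2.34 for Cxcl1 and 2.19 for Cxcl2, so that Cxcl1 exceeded the median gene by 1.98 as reported and by 2.44 after it.

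**Figure D1:**
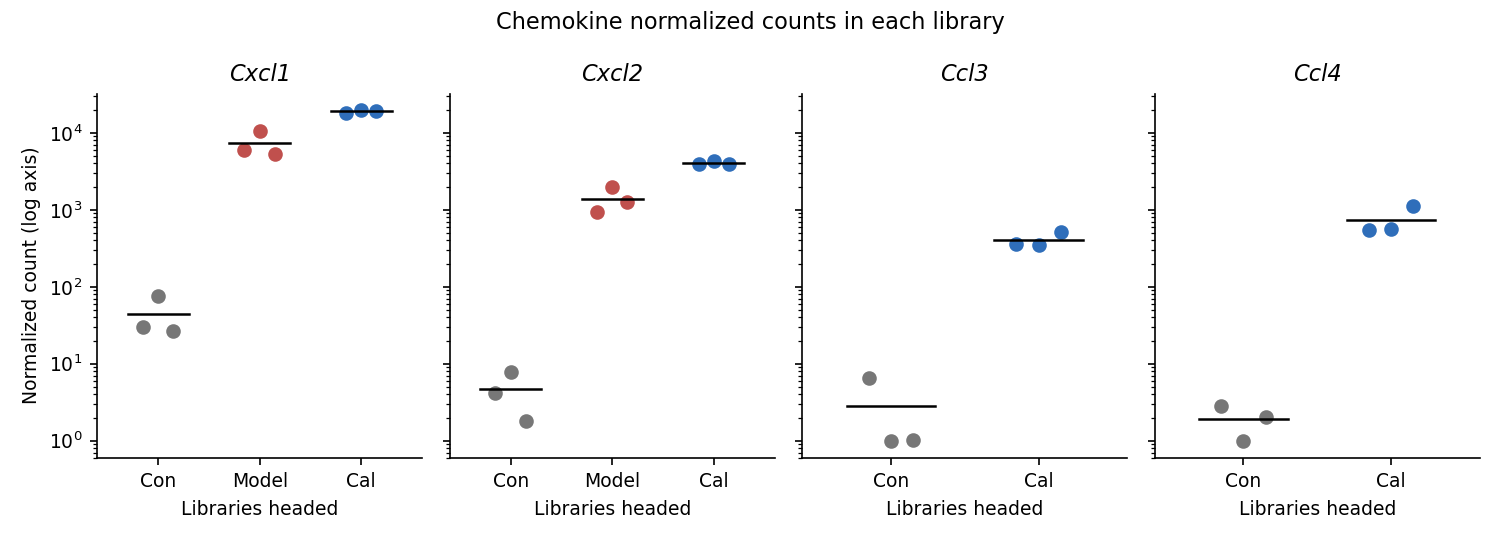
Normalized counts (log axis) of Cxcl1, Cxcl2, Ccl3 and Ccl4 in each library, by the heading of its column, with 1 point per library and a line at the group mean. Values headed Con are on the scale of the Cal and model table for Cxcl1 and Cxcl2, where all 3 groups are separate, and on that of the model and sham table for Ccl3 and Ccl4, which show libraries headed Con at 0.982 to 6.52 and those headed Cal at 345 to 1122.

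To set all 3 groups on a single scale, values headed Con were multiplied by 0.894, the ratio of the normalized counts of the shared Cal libraries between the tables. Cxcl1 then stood at 30.0, 75.5 and 26.3 in the libraries headed Con (43.9 ± 27.4) and Cxcl2 at 4.17, 7.91 and 1.81 (4.63 ± 3.07). The libraries headed Model exceeded these by 7.43 ± 0.56 on the log2 scale for Cxcl1 and by 8.04 ± 0.57 for Cxcl2, ratios of means of 166 and 302. On the log2 scale, most of the distance from the libraries headed Con to those headed Cal lay between Con and Model, whereas in normalized counts most of it lay between Model and Cal. The tables were normalized separately, so this order across tables is a description only.

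Ccl3 and Ccl4 were barely detected without ligation. Ccl3 had 6.52, 0.982 and 1.01 normalized counts in the libraries headed Con, from 7, 1 and 1 reads, and 359, 345 and 520 in those headed Cal (408 ± 97.1). Ccl4 had 2.80, 0.982 and 2.02 in the libraries headed Con, from 3, 1 and 2 reads, and 550, 560 and 1122 in those headed Cal (744 ± 327). For both genes the third library headed Cal was the highest and the first 2 were close to each other. The Ccl4 value of that library was about level with the sum of the other 2.

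All 4 genes were higher without overlap in the libraries headed Cal than in those headed Con, beside 58.8% of all listed genes, and all 4 passed the limits for a call in this direction, beside 18.0%. The libraries headed Con held 16 reads of Cxcl2, 9 of Ccl3 and 6 of Ccl4, against 151 of Cxcl1. The ratio of Cal over Con, with its exact 95% interval for counting error only, was 865 for Cxcl2 (532 to 1513) and 434 for Cxcl1 (370 to 513). It was 388 for Ccl4 (178 to 1057) and 141 for Ccl3 (73.9 to 309). These intervals leave out the spread between animals, and the order of the 4 was not tested.

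On the scale of log2(normalized count + 1), these differences were 9.67 ± 0.37 for Cxcl2, 8.89 ± 0.34 for Cxcl1, 7.95 ± 0.36 for Ccl4 and 7.02 ± 0.51 for Ccl3 (SE). They were ranks 1, 2, 4 and 7 of the 2458 listed genes. The other ranks up to 10 were held by Il6, Cxcl10, Sele, Il1a, Ptx3 and Csf3, all genes of acute inflammation. In Cal over Model the same ordering of the 4288 listed genes placed Cxcl2 at rank 630 and Cxcl1 at rank 713. A larger pseudocount of 10 shrank Ccl3 to 5.03 and Ccl4 to 5.90.

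**Figure D2:**
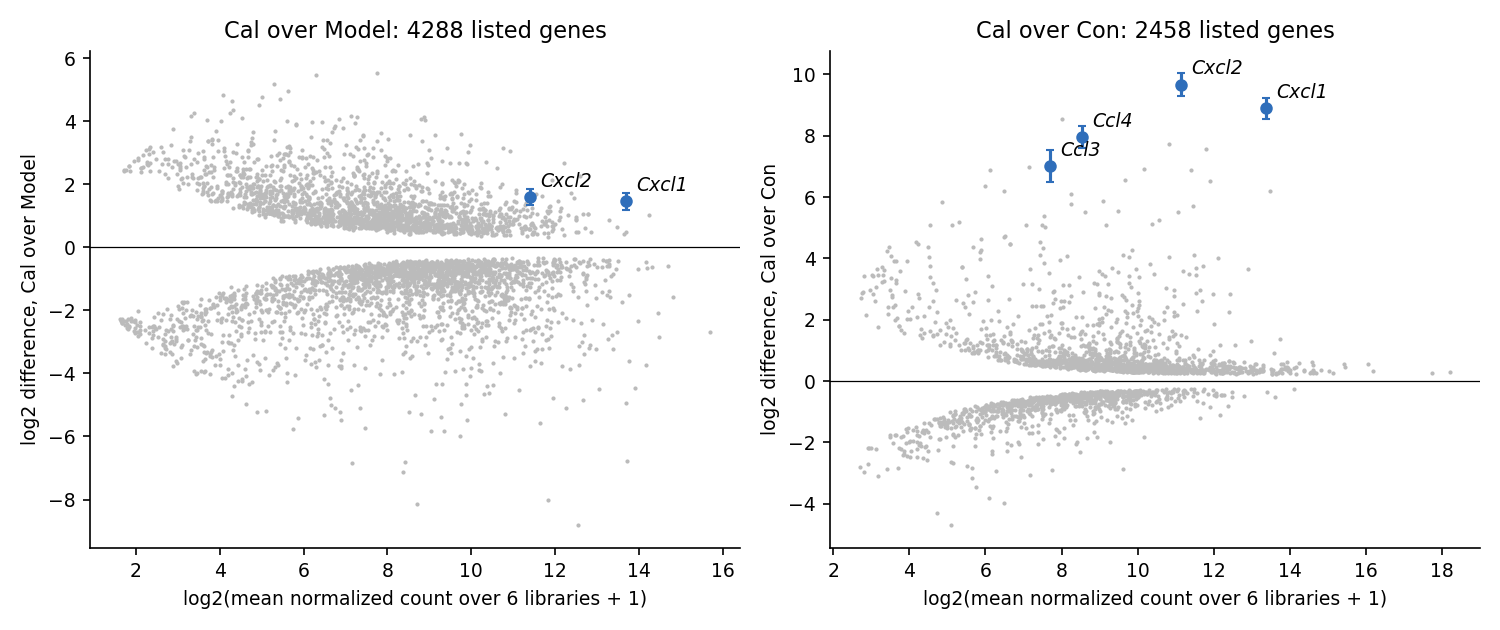
Each point is a listed gene, with log2(mean normalized count over 6 libraries + 1) on the x axis and the log2 difference on the y axis, for Cal over Model and for Cal over Con. The chemokines (blue, bars show SE) stood at the upper edge of Cal over Con with differences of 7.02 to 9.67, whereas Cxcl1 and Cxcl2 lay within the cloud of Cal over Model at 1.46 and 1.59.

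Levels were compared between genes after division by the deposited length, as normalized counts per kilobase. In the libraries headed Cal of the model and sham table the order was Cxcl1 at 11362, Cxcl2 at 2176, Ccl4 at 1127 and Ccl3 at 533. Ccl4 exceeded Ccl3 in each of these libraries, by ratios per length of 1.78, 1.88 and 2.50, and Cxcl2 exceeded Ccl3 by ratios of 4.49, 5.17 and 3.09. In the libraries headed Con, only Cxcl1 stood apart, at 26.2 against 2.50 for Cxcl2, 3.71 for Ccl3 and 2.93 for Ccl4, and those last 3 did not differ beyond their spread. The lengths are those of mouse genes, and they cover the whole span of Cxcl1 and Cxcl2 but not of Ccl3 and Ccl4. Ratios between genes are therefore approximate, above all those of Cxcl1 or Cxcl2 to Ccl3 or Ccl4.

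The balance of Cxcl2 to Cxcl1 was similar in the libraries headed Cal and headed Model and lower in those headed Con. The ratio per length was 0.193, 0.197 and 0.184 in the libraries headed Cal and 0.145, 0.170 and 0.215 in those headed Model. These groups overlapped, and the libraries headed Cal lay within the range of those headed Model. In the libraries headed Con the ratio was 0.126, 0.0949 and 0.0625, below every ligated library, with only 16 reads of Cxcl2 in all 3.

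The spread between animals differed by group and by gene. Under the heading Cal, the coefficient of variation was 3.95% for Cxcl1 and 5.83% for Cxcl2, against a median of 9.26% over 2931 genes with a group mean of at least 100 normalized counts. Under the heading Model it was 39.7% and 38.2%, against a median of 19.1% over 2888 genes. Ccl3 and Ccl4 went the other way under the heading Cal, with 23.8% and 44.0% in the model and sham table, where the median of 1985 genes was 9.02%. Of those genes, 89.3% varied less than Ccl3 and 98.2% less than Ccl4.

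In the second library headed Model, Cxcl1 lay 0.61 and Cxcl2 0.57 above the group mean on the log2 scale, as did the neutrophil chemokine Cxcl5 (0.51) and the interferon-induced chemokine Cxcl10 (0.48). Tnf and Il1b were 0.09 and 0.20 above the mean in that library and highest in the first library headed Model, by 0.40 and 0.41. That second library had the smallest size factor of its table, 0.820, and was the highest of its group for 40.5% of listed genes.

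In the third library headed Cal, Ccl3 lay 0.37 and Ccl4 0.68 above the group mean, while Cxcl1 was within 0.01 of it. Cxcl9 (1.38) and Cxcl10 (1.32), which attract T cells, were raised in the same library, and Tnf was instead highest in the first library headed Cal (0.57). The third library was the highest of its group for 36.6% of genes in the model and sham table. The part of library depth or cell composition in these deviations was not tested.

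**Figure D3:**
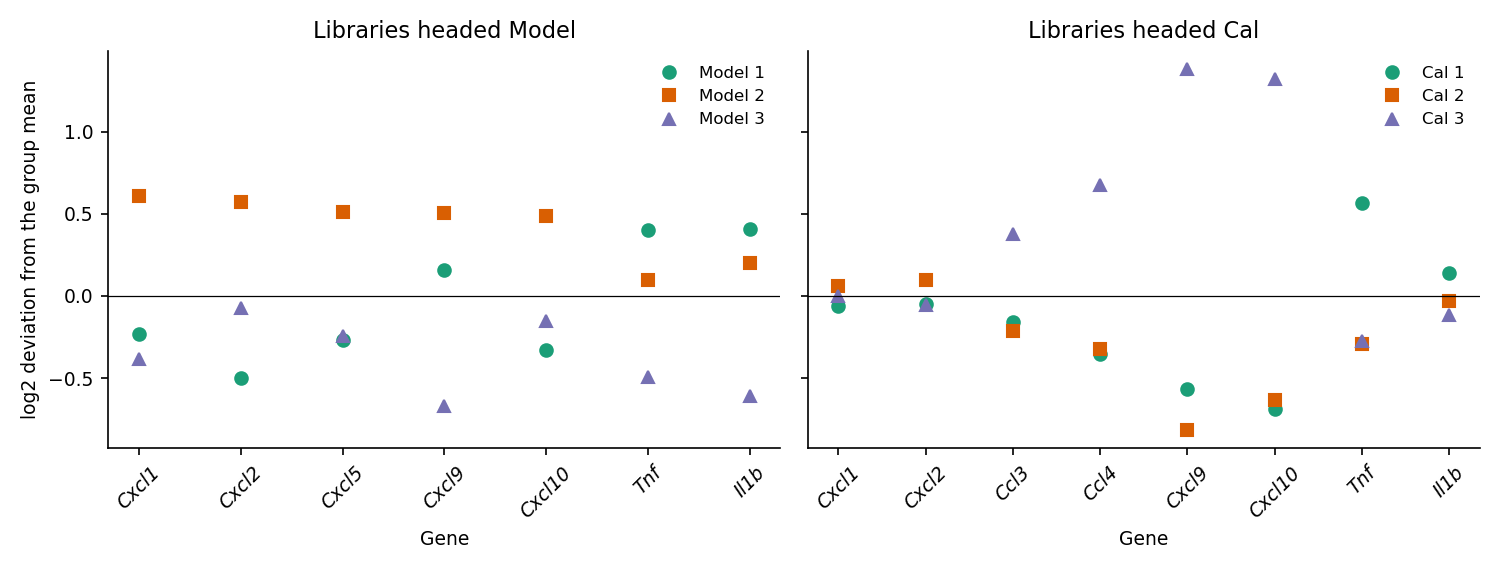
Deviation of each library from its group mean, in log2(normalized count + 1), for the chemokines and for cytokines beside them, in the libraries headed Model and headed Cal. Cxcl1 (0.61) and Cxcl2 (0.57) were high in Model 2, and Ccl3 (0.37), Ccl4 (0.68), Cxcl9 (1.38) and Cxcl10 (1.32) in Cal 3.

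The other genes below come from fixed lists, and each was tested with limma on log2(normalized count + 1). A gene was called when its adjusted p was under 0.05 and its log2 difference was beyond 1 in either direction, and rose or fell is used of called genes only. These limits called 60.1% of listed genes in Cal over Model (28.4% higher and 31.6% lower under the heading Cal) and 29.0% in Cal over Con (18.0% higher and 10.9% lower). The shares are high because the authors listed only genes that their own test had picked from the same libraries. An adjusted p below is for the same reason not independent of the listing.

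The receptors of these chemokines were mostly lower where the chemokines were higher. Of 8 receptors and decoys in the list, 5 were listed in Cal over Model, of which 4 fell and 1 rose under the heading Cal. Cxcr2, the neutrophil receptor for Cxcl1 and Cxcl2, had 41.0, 51.2 and 25.9 normalized counts in the libraries headed Model, and 0.922, 1.88 and 3.42 in those headed Cal, from 1, 2 and 4 reads. The groups were far from overlapping. Model over Cal was a ratio of 18.2 (exact 95% interval 8.53 to 46.4, counting error only), a fall of 3.75 ± 0.44 on the log2 scale (limma adjusted p = 0.000471).

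The decoy receptors, which take chemokines up without signalling, were listed too. Ackr1, found on red cells and venules, had 142 ± 41.5 normalized counts under the heading Model and 10.5 ± 2.80 under the heading Cal (limma adjusted p = 0.00023), and Ackr2, which clears inflammatory CC chemokines, at 68.4 ± 11.3 against 25.3 ± 14.7 (0.00778). Ackr4 alone rose, from 4.61 ± 4.51 to 46.6 ± 14.0 (0.0019). It was kept in the list as fixed, although its known ligands are other CC chemokines.

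Against the libraries headed Con, 2 receptors were listed. Ackr2 fell there too, from 76.4 ± 9.95 to 28.3 ± 16.5 normalized counts (limma adjusted p = 0.00519). Ackr4 was at 102 ± 23.1 in the libraries headed Con and 52.1 ± 15.6 in those headed Cal, a log2 difference of -0.98 that missed the limit of size as reported and passed it without the first library headed Cal (-1.19) or the second headed Con (-1.14).

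Markers of neutrophils, the cells that Cxcl1 and Cxcl2 attract, moved the other way from both genes in Cal over Model. Of 15 markers, 14 were listed, 13 fell under the heading Cal and 1, Fcgr3, was not called. Their summed normalized count was 1915 to 2207 in the libraries headed Model and 427 to 704 in those headed Cal. The fall of Camp, with 10.8, 1.22 and 23.0 under the heading Model, was called in only 7 of 13 alternatives. Mpo, the granule enzyme myeloperoxidase, was at 0 in all 3 libraries headed Cal. It was also near the floor in those headed Model, at 7.56, 3.66 and 1.92, from 12 reads in all. S100a9, a cytosolic protein of neutrophils, had 398 ± 24.6 against 78.1 ± 42.0 (limma adjusted p = 0.00183). Only 2 of the 15 were listed in Cal over Con, S100a8 and S100a9, and both rose, with sums of 48.5 to 183 under the heading Cal and 13.1 to 28.5 under the heading Con.

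Macrophages are a source of all 4 chemokines. Of 15 markers of monocytes or macrophages, 11 were listed in Cal over Model, of which 6 rose and 3 fell, and their summed normalized count was 8979 to 10076 in the libraries headed Cal and 4732 to 5778 in those headed Model. None of the 11 was at 0 throughout a group. Of the 5 listed in Cal over Con, 1 rose and 2 fell. Their sums were 2268 to 3033 under the heading Cal and 1394 to 1560 under the heading Con. The higher sum rested on Cd14, which rose from 146 ± 27.2 under the heading Con to 1612 ± 403 under the heading Cal. Ccr2 and Cx3cr1 fell, while Mrc1 (988 under Con, 703 under Cal) and Msr1 (93.7 and 174) were not called. The part of these cells in the chemokine levels was not tested.

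Cxcl5 and Cxcl3 are the other Cxcr2 ligands among the listed genes, and they were singled out after their values were seen. Cxcl5 had 4258, 7311 and 4331 normalized counts in the libraries headed Model and 363, 600 and 646 in those headed Cal. It fell by 3.30 ± 0.29 on the log2 scale (limma adjusted p = 0.000201), the direction opposite to that of Cxcl1 and Cxcl2. Against the libraries headed Con, which held 6.52, 7.86 and 8.10, it rose by 6.10 ± 0.25 (limma adjusted p = 8.62e-07).

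The share of Cxcl5 among 3 of these ligands was highest in the libraries headed Model. Of the summed level per length of Cxcl1, Cxcl2 and Cxcl5, Cxcl5 made up 38.8%, 37.3% and 40.2% in the libraries headed Model, and 1.65%, 2.49% and 2.79% in those headed Cal. Cxcl1 made up 53.5%, 53.6% and 49.2% under the heading Model and 82.4%, 81.5% and 82.1% under the heading Cal. In the libraries headed Con, where Cxcl5 had 23 reads in all, its share was 14.8%, 7.88% and 20.7%. The Cxcl1 share there was 75.7%, 84.1% and 74.6%, which overlapped that under the heading Cal. Cxcl3, the closest relative of Cxcl2, was listed in Cal over Con alone, at 25.8, 63.1 and 43.8 normalized counts under the heading Cal and a single read in the 3 libraries headed Con.

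**Figure D4:**
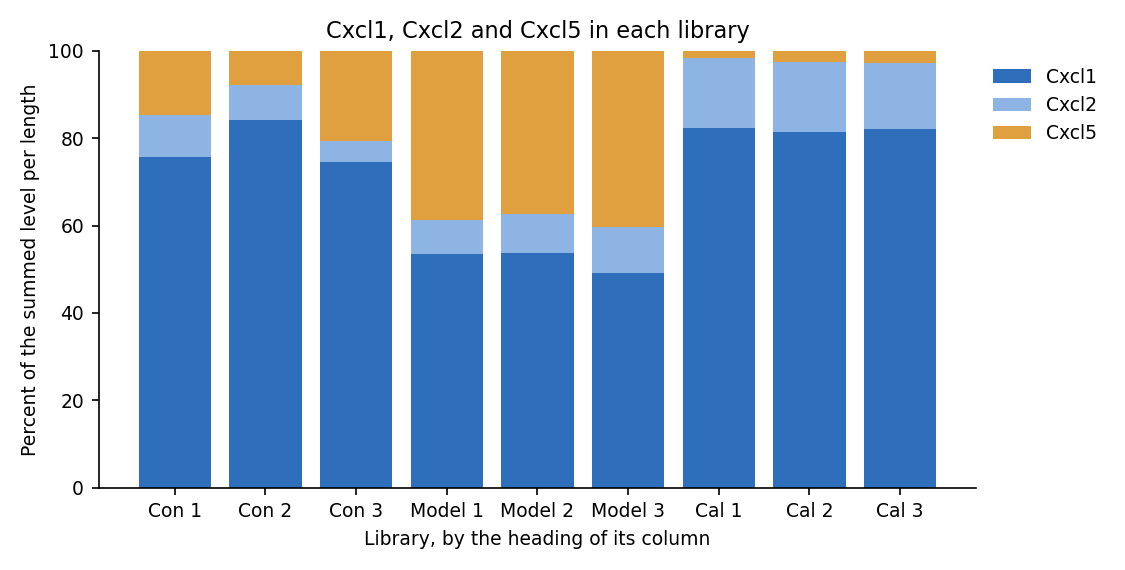
Shares of Cxcl1, Cxcl2 and Cxcl5 in their summed level per deposited length, in percent, for each of the 9 libraries by heading. The Cxcl5 share was 37.3% to 40.2% in the libraries headed Model, 1.65% to 2.79% in those headed Cal and 7.88% to 20.7% in those headed Con.

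Other chemokines divided in Cal over Model and mostly rose in Cal over Con. Of 32, 16 were listed in Cal over Model, of which 4 rose, 10 fell and 2 were not called under the heading Cal, with a median of -1.71. The least stable calls were Pf4 (1.04) and Ccl19 (-3.30), kept in 10 and 8 of 14 alternatives. Ccl19 had 4.32, 90.2 and 0.959 normalized counts in the libraries headed Model and 0 in those headed Cal. The greatest rises were in Cxcl12, which holds progenitor and immune cells through Cxcr4 (2273 ± 197 against 355 ± 75.2 normalized counts, a log2 difference of 2.70), in Ccl6 (2.43) and in the monocyte chemokine Ccl12 (1.67). The greatest falls were in the interferon-induced T cell chemokines Cxcl11 (-5.99) and Cxcl9 (-4.95) and in Ccl5 (-4.62), a CC chemokine that attracts T cells. Ccl5 went from 2639 ± 411 under the heading Model to 109 ± 31.5 under the heading Cal (limma adjusted p = 7.65e-05).

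Against the libraries headed Con, 16 were listed, 14 rose, none fell and 2 were not called, with a median of 3.29 against 0.37 for all listed genes. The 2 were Cxcl12 (-0.71) and Pf4 (0.41), a platelet chemokine. Cxcl12 was lower without overlap, at 2541 ± 215 normalized counts under the heading Cal and 4152 ± 112 under the heading Con. It missed only the limit of size. Ccl2, the main monocyte chemokine, was named after its value was seen, and went from 88.3 ± 40.9 to 7562 ± 1134 normalized counts, a log2 difference of 6.52 ± 0.34 (limma adjusted p = 2.75e-06). Cxcl9 and Cxcl10 rose by 1.92 and 7.73 there.

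**Figure D5:**
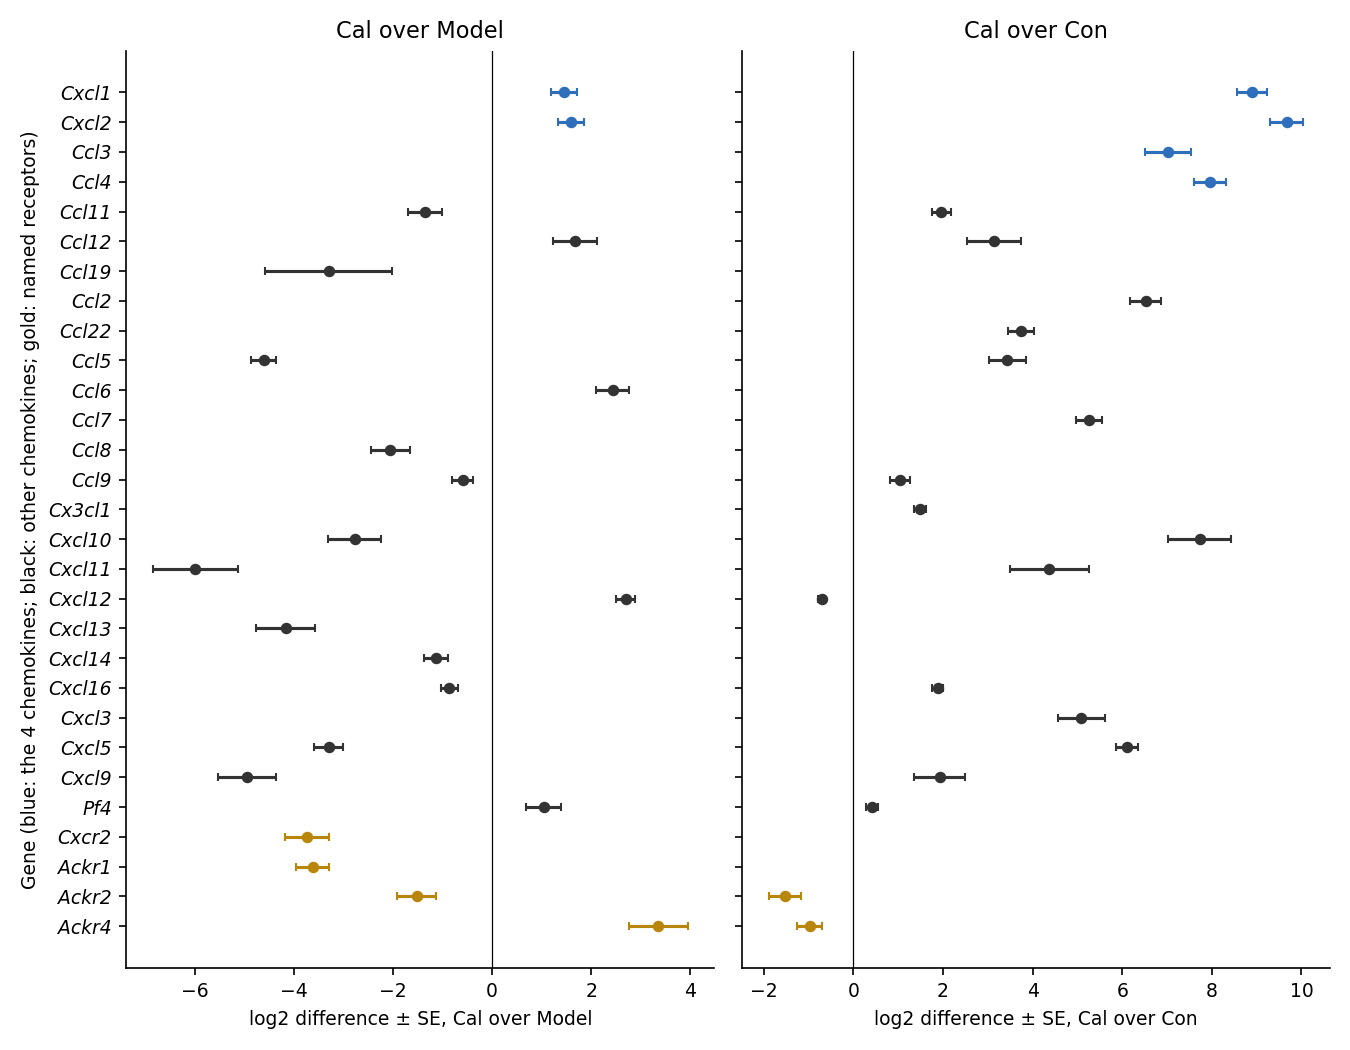
log2 differences with SE for the 4 chemokines (blue), other listed chemokines (black) and the receptors named in the text (gold), for Cal over Model and Cal over Con, with no point where a gene was not listed. Cxcl1 (1.46) and Cxcl2 (1.59) lay right of 0 in Cal over Model beside Cxcl12 (2.70) and left of it stood Cxcl5 (-3.30), Cxcl9 (-4.95), Cxcl11 (-5.99) and Cxcr2 (-3.75).

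In Cal over Model, where Cxcl1 and Cxcl2 have values, the inducing cytokines Tnf and Il1b were higher under the heading Cal, whereas 4 receptor genes for them, Tnfrsf1a, Tnfrsf1b, Il1r1 and Il1rap, were lower. Of 23 inducers and members of the NF-κB pathway, 11 were listed in Cal over Model, of which 3 rose (Tnf, Il1b and Rel), 5 fell and 3 were not called, a median of -0.85. Tnf, the gene of tumor necrosis factor, had 757, 416 and 424 normalized counts in the libraries headed Cal and 163, 132 and 87.2 in those headed Model, a rise of 2.04 ± 0.31 (limma adjusted p = 0.00115). Il1b, the gene of interleukin 1 beta, rose by 2.02 ± 0.26 (adjusted p = 0.000623 by limma) and Rel, an NF-κB subunit, by 1.18. The largest falls were in the receptor Tnfrsf1a (-1.79), the adaptor Myd88 (-1.63) and the interleukin 1 co-receptor Il1rap (-1.59).

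Of the pathway, 13 of the 23 were listed in Cal over Con, 11 rose and 2 were not called, with a median of 2.20. Il1b rose by 6.55 ± 0.37 and Tnf by 5.79 ± 0.44 in that comparison, and Tnfrsf1b, the only one of those receptors listed there, was at 0.71. Il1b was also among the genes whose profile was nearest to those of Cxcl1 and Cxcl2 (below).

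NF-κB switches on inhibitors that limit its own activity. Of 13, 6 were listed in Cal over Model, of which 4 fell, 1 rose and 1 was not called under the heading Cal, a median of -2.57. Those that fell were the interleukin 1 decoy receptor Il1r2 (-3.66), the kinase inhibitor Irak3 (-3.21), the interleukin 1 receptor antagonist Il1rn (-3.18) and Tnip1 (-1.97), a partner of A20. Nfkbid, a nuclear IκB protein, rose by 2.91 ± 0.42 (limma adjusted p = 0.000954), and Nfkbib was at -0.53. All 10 inhibitors listed in Cal over Con rose, with a median of 3.43.

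Immediate early genes, which like the 4 chemokines respond within minutes to hours, were mostly higher in the libraries headed Cal. Of 24, 16 were listed in Cal over Model, of which 9 rose, 1 fell and 6 were not called, a median of 1.54. The greatest rises were in the AP-1 subunit Fosb (4.14 ± 0.33, from 14.8 ± 2.41 to 290 ± 112 normalized counts), in Egr3 (4.08) and in the nuclear receptor Nr4a1 (2.66). Klf2, a factor of quiescent endothelium, fell by 1.13, a call lost with quantile normalization (-0.79) and median-ratio scaling (-0.83), and Klf6 (-0.97) and Fosl1 (-0.88) were not called. Cal over Con listed 21, of which 19 rose and 2, Klf2 and Klf4, fell, a median of 2.46.

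Few genes that regulate the decay of AU-rich mRNAs, such as those of the 4 chemokines, were listed. Of 10, 2 were listed in Cal over Model. Zfp36, the gene of tristetraprolin, which binds AU-rich elements and speeds decay, rose by 1.09 ± 0.29 (limma adjusted p = 0.0084), a call lost without the first library headed Model (0.82) or headed Cal (0.92), and its relative Zfp36l1 was at 0.63. In Cal over Con 5 were listed, of which Zfp36 (3.70) and Zc3h12a (4.03), the endonuclease Regnase-1, rose, and Zfp36l1 (0.61), Zfp36l2 (-0.76) and Mapkapk2 (0.60) were not called. The mRNA half-lives themselves were not measured.

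Genes of neutrophil entry, the step that Cxcl1 and Cxcl2 direct, went in both directions in Cal over Model. Of 16, 9 were listed, of which 2 rose, 6 fell and 1 was not called under the heading Cal, a median of -1.83. Sele, the E-selectin gene of activated endothelium, had 998, 1989 and 1476 normalized counts in the libraries headed Model and 5186, 7142 and 6601 in those headed Cal, a rise of 2.13 ± 0.26 (limma adjusted p = 0.000539). Selp, the P-selectin gene of endothelium and platelets, fell by 1.81 ± 0.32 (limma adjusted p = 0.00194). Icam2, an endothelial adhesion gene, rose by 1.02, but by 0.89 and uncalled without the second library headed Model and by 0.94 without the third headed Cal. Csf1 was at 0.87, and passed the limits without that second library (1.06), with quantile normalization (1.71) and with median-ratio scaling (1.17). Those that fell included Csf3 (-4.09), which codes for the neutrophil growth factor G-CSF, and the G-CSF receptor Csf3r (-2.74), which is also a neutrophil marker above.

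Endothelial markers moved with Sele in Cal over Model. Of 8, 7 were listed, 4 rose (Pecam1, Kdr, Tek and Fabp4), none fell and 3 were not called, with summed normalized counts of 16821 to 17775 in the libraries headed Cal and 6674 to 8580 in those headed Model. Their part in the Sele values was not tested.

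In Cal over Con 9 of 9 listed genes of entry rose, with a median of 5.88, or 5.56 with Csf2 and Csf3 at their bounds. Csf3 had no read in the libraries headed Con and at least 47.0-fold more under the heading Cal, set against 3 counts per library. Sele rose there by 7.56 ± 0.20 from 37.1 ± 10.7 normalized counts (limma adjusted p = 1.33e-07). The 5 endothelial markers listed in that comparison summed to 12146 to 14064 normalized counts under the heading Cal and 19512 to 22159 under the heading Con.

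The genes most like each member were found by the root-mean-square distance between log2 profiles centred over libraries. Across the 9 libraries and 907 candidate genes listed in both tables, Cxcl1 was nearest to Cxcl2, at 0.39 (Pearson r = 0.999), followed by Sele at 0.98, Il1b at 1.30, Nlrp3 at 1.60 and Selp at 1.63. For Cxcl2, Cxcl1 was followed by Sele at 1.21, Il1b at 1.63, Selp at 1.82 and the pentraxin gene Ptx3 at 1.83. The gap from the closest to the next gene was thus wide for both. Selp and Ptx3 were higher under the heading Model (3217 and 10481) than under the heading Cal (959 and 2056), unlike Cxcl1 and Cxcl2. With Cxcl1 and Cxcl2 they shared low values under the heading Con (14.85 and 14.88).

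Ccl3 and Ccl4 could be placed only across the 6 libraries of the model and sham table, with 2118 candidates. Ccl3 was nearest to Il1a, at 0.50, then to Sele (0.54), Ccl2 (0.60), the small GTPase gene Rnd1 (0.62) and Ccl4 (0.67). Ccl4 was nearest to Sele, at 0.43, then to Ccl3 (0.67), Il6 (0.69), Rnd1 (0.71) and Ptx3 (0.78). Among all candidates Cxcl1 was rank 7 for Ccl4 and rank 29 for Ccl3. These distances are dominated by the contrast between the groups that the libraries share, with few independent points.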

How the data were processed

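Cardiac RNA-seq values of 9 rats were analysed, 3 per group, from 2 deposited tables. The 4 chemokines and all lists were chosen with earlier results of these data known. Each sample column holds a deposited signal, the gene's reads over the library's size factor, which the authors set table by table, and 100% of values were whole reads times that factor within 0.01 reads. Size factors were 0.820 to 1.17 and 0.950 to 1.07. The authors also deposited mean columns, log2 fold changes, p-values and adjusted p-values, and these comparison columns were not used. Their Methods name DESeq2 and rat reference sequences. The submitters' processing notes name Bowtie 0.12.2 and the builds mm8 and mm9, with mouse identifiers in the tables. Which build gave the coordinates is not stated. No column belonged to another sample.

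Differences came from limma 3.58.1 in R 4.3.3 on log2(normalized count + 1), with a trended prior variance and Benjamini-Hochberg adjustment over all listed genes of a table. The animals were separate, and p-values measure only the spread between these 3 per group. The planned model against sham comparison was made between libraries headed Cal and Con. The design foresaw normalized values, and the values proved to be counts divided by size factors. Genes named are the 4 chemokines, every listed receptor, all listed genes of a list where 6 or fewer were listed, otherwise the 3 highest and 3 lowest in Cal over Model, and the 5 nearest profiles among genes with at least 100 normalized counts in their highest group. Genes outside this rule for some values were named after these were seen. They are Myh6, Fcgr3, Mpo, Camp, S100a8, S100a9, Cxcl3, Cxcl5, Ccl2, Ccl19, Ccl20, Cxcl10, Pf4, Klf4, Selp, Tnfrsf1b and Il1r1. The same holds for Cd14, Mrc1, Msr1, Ccr2, Cx3cr1, Dcn, Ryr2 and the endothelial markers. Some genes that the rule covers are not reported here, though list counts include them. Exact intervals were computed in scipy 1.17.1. As alternatives, each library was left out in turn, the pseudocount was set to 0.1 or 10, genes with a mean under 10 were dropped, quantile normalization or median-ratio scaling replaced the size factors, the replicate number entered as a block, and edgeR 4.0.16 and DESeq2 1.42.0 were run on recovered reads. For member differences, edgeR and DESeq2 were added after seeing the data. In simulated counts, limma found 99% of 200 genes changed by 2 (log2) among 4091 genes of Cal over Model (2 false calls). For Cal over Con it found 100% of 200, with 2426 genes simulated (1 false call). The simulation kept genes with a mean of at least 10, gave them all the same dispersion and left the others unchanged. The listed genes differ from this, with 60.1% called in Cal over Model, so these figures do not carry over to the calls above.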

Additional observations from a re-analysis of the deposited data

How the results depend on the processing

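No difference of a member changed sign under any alternative run, and no list gene outside the cell type markers did. Under 1 alternative each, the fibroblast marker Dcn in Cal over Model and the cardiomyocyte marker Ryr2 in Cal over Con changed sign. Quantile normalization gave 2.34 (Cxcl1) and 2.19 (Cxcl2) for Cal over Model, 9.0 (Cxcl2) and 7.16 (Ccl4) for Cal over Con, and 6.72 (Cxcl1) and 6.66 (Cxcl2) for Model over Con across the tables. A pseudocount of 10 gave 8.24 (Cxcl2), 5.03 (Ccl3) and 5.90 (Ccl4) for Cal over Con and 6.54 (Cxcl2) for Model over Con. Ccl4 in Cal over Con was 8.54 with a pseudocount of 0.1, 8.49 with edgeR and 8.58 with DESeq2. The cause was not tested, beyond the small counts in the libraries headed Con that the pseudocount acts on. In the receptor list, 2 genes rather than 1 fell in Cal over Con under quantile normalization and under median-ratio scaling.

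Leaving out each library in turn gave 1.27 to 1.76 for Cxcl1 and 1.34 to 1.88 for Cxcl2 in Cal over Model. In Cal over Con it gave 8.61 to 9.36 (Cxcl1), 9.23 to 10.09 (Cxcl2), 6.69 to 7.65 (Ccl3) and 7.62 to 8.17 (Ccl4). Counts of called genes were 2344 to 2704 and 679 to 775. Of called genes, 47.3% were higher under the heading Cal in Cal over Model, 61.1% with median-ratio scaling and 54.2% with quantile normalization. In Cal over Con the share was 62.2%, 43.4% with median-ratio scaling and 47.4% with quantile normalization. edgeR called 2593 and 716 genes.

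With the replicate number as a block, 2574 genes were called in Cal over Model and 713 in Cal over Con. Correlations of the deviations of same-numbered libraries were 0.11, -0.12 and -0.08 in the Cal and model table. Number 1 correlated best with its own number there, and numbers 2 and 3 did not. These values show no clear pairing of the animals by number, and 3 libraries per group cannot exclude it.

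Few reads in the libraries headed Con limit the size of the Ccl3, Ccl4 and Cxcl2 ratios, and the total depth is unknown.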
